A study of Mus musculus with 24 samples.

Results

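The lens fiber genes other than the crystallins were followed in 24 RNA sequencing libraries of the mouse eye. The set was the 9 genes Mip, Gja3, Lim2, Bfsp1, Bfsp2, Grifin, Lgsn, Birc7 and Hsf4, taken by gene symbol from the 56748 genes of the deposited table, and 8 of the 9 had at least 1 count in any library. The mice carried 1 copy of a dox inducible human PRDM13 cassette at the Rosa26 locus (PRDM13-OE) or were wildtype littermates, on the C57BL/6J background, of both sexes. In the cassette the ubiquitous EF-1α promoter drove the reverse tetracycline transactivator, and the TRE3G promoter drove PRDM13, so that induction was not limited to a cell type. Each genotype was left untreated or received 2 mg/mL dox with 10% sucrose by mouth, in place of plain water, over 72 hours beginning at P28, so that effects of dox and of sucrose cannot be told apart here. From each of 3 mice in each of the 4 combinations, the neural retina and the remaining eye cup, which was labelled as RPE, choroid and sclera, were sequenced. The labels name the lens in neither tissue.

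Lens fiber cells elongate from the lens epithelium, lose their organelles and live on as packed, transparent cells filled with crystallin proteins. Their membranes carry a lens water channel and gap junctions that serve the avascular lens, and their cytoskeleton includes a lens intermediate filament system, the beaded filament. Several of these genes cause cataract when mutated, and lens transcription factors of the Maf, Sox, Pax and heat shock factor families act upstream of them.

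The sequence before the transcription start was searched in RefSeq promoters (GRCm39, 250 bases before to 50 bases from the start) for a core of the Maf recognition element, TGCTGA, on both strands. An entry was matched for 8 members. The letters were found in the promoters of Mip, Bfsp1, Lgsn and Lim2, and 19.5% of 32851 RefSeq promoters of the same length held them. A heat shock element core, GAANNTTC, which 7.86% of the promoters held, was found in none of these 8 members. Both RefSeq starts of Gja3 were searched, and the RefSeq start of Bfsp2 lies 31244 bases from the start of its deposited gene, so that its window is not the one before the deposited start. Neither motif is contained in the other. The 250 bases before the start are shown for the 4 members with a Maf core, since these genes reached very different levels in the same libraries, and the capitals mark the core or its reverse complement. Its first base lies at -132 in Mip (chr10:128061429-128061678, + strand), -187 in Bfsp1 (chr2:143705094-143705343, - strand), -35 in Lgsn (chr1:31215266-31215515, + strand) and -139 in Lim2 (chr7:43079273-43079522, + strand). A match is only a run of letters and was not tested as a binding site.
Mip: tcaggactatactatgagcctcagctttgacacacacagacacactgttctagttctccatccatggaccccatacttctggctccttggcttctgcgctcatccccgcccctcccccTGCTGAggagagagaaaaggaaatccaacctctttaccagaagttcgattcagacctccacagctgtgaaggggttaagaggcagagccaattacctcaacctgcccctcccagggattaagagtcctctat
Bfsp1: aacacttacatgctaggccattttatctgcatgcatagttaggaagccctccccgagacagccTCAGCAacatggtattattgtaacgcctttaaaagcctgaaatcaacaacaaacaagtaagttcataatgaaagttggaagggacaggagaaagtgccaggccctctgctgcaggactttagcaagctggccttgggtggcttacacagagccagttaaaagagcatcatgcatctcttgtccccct
Lgsn: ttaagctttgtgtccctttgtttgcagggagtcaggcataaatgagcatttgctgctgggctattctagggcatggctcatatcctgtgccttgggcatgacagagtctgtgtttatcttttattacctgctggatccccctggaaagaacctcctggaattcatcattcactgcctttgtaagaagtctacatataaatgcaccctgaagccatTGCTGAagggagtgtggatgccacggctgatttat
Lim2: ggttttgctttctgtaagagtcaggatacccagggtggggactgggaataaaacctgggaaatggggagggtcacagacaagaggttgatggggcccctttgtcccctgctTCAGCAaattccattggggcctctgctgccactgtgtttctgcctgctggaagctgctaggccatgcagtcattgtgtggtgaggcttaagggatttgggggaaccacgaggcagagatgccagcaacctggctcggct

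Library totals ran from 15825059 to 24908314 counts, and levels are given as CPM, which are counts divided by a library's depth after scaling the 24 libraries with edgeR's TMM factors. A gene with at most 3 counts in a library was treated as undetected there, which corresponds to 0.12 to 0.19 CPM and covers counting error only. The neural retinas held 42548 to 63869 CPM of 6 rod genes and at most 2.31 CPM of 5 surface epithelium genes, except for the wildtype retina with dox of mouse 2 at 15.7 CPM. The eye cups were mixed: the rod genes ran from 2610 to 44773 CPM, 5 RPE genes from 5696 to 40515 CPM, and the surface epithelium genes, which include the corneal keratin Krt12, from 1124 to 38802 CPM. The sum of 14 crystallin genes, the defining lens products, ran from 3.33 to 10614 CPM in retinas and from 5.62 to 4141 CPM in eye cups. Wildtype retinas with dox from mice 1 and 2, the latter being the one with more surface epithelium RNA, stood apart with 10614 and 4428 CPM of crystallin, while the other 10 retinas had at most 837 CPM. The mouse copy of the targeted gene, Prdm13, had 983 to 1097 counts in PRDM13-OE retinas with dox and 791 to 917 counts in wildtype retinas with dox. Untreated retinas had 775 to 936 counts in PRDM13-OE and 922 to 1021 counts in wildtype, and the latter overlapped PRDM13-OE with dox. These raw counts were not tested. By qPCR, the authors found mouse Prdm13 unchanged after the same time on dox. The human transgene was not analysed here.

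Mip encodes aquaporin-0, the water channel of the fiber membrane (ENSMUSG00000025389, GRCm39 chr10:128061707-128067681). In wildtype retinas with dox its level was 478 CPM in mouse 1, 145 CPM in mouse 2 and 1.17 CPM in mouse 3. In untreated wildtype retinas it was 36.6, 1.08 and 1.47 CPM. In PRDM13-OE retinas it was 0.773, 0.822 and 0.252 CPM with dox, and 1.5, 0.383 and 8.93 CPM without. The highest retina was thus 1896 times the lowest, and 2 libraries held 92.2% of the CPM summed over the 12 retinas. In eye cups Mip spread over all groups, with 47.2, 22.3 and 8.85 CPM in wildtype with dox, 34.7, 15.6 and 1.60 CPM in untreated wildtype, 0.362, 42.9 and 1.39 CPM in PRDM13-OE with dox, and 2.32, 1.01 and 3.87 CPM in untreated PRDM13-OE. The 1 high PRDM13-OE eye cup, from mouse 2 with dox, had a retina at 0.822 CPM.

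Gja3 encodes connexin 46, a gap junction subunit of fiber cells (ENSMUSG00000048582, chr14:57271917-57295557). It had 542 and 479 counts in the wildtype retinas with dox of mice 1 and 2, equal to 29.3 and 24.1 CPM, and 2 counts in mouse 3. Of the other 9 retinas, the untreated wildtype retina of mouse 1 had 39 counts (1.78 CPM), and the rest had 0 to 6 counts. The highest eye cups were wildtype, with 65 counts in mouse 1 with dox and 75 counts in untreated mouse 1. The PRDM13-OE eye cups had at most 15 counts.

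Lim2 encodes MP20, an abundant fiber membrane protein (ENSMUSG00000118560, chr7:43079512-43085420). It was listed at 0 counts in all 24 libraries, including those with the most crystallin, and no comparison could be made. In GENCODE vM39, 99.4% of its exon bases are shared with Gm52993, a readthrough gene on the same strand, so reads from Lim2 could be assigned to either gene or to neither. Gm52993 had 9 counts over the 24 libraries. A true absence of Lim2 and a loss of its reads between the 2 genes cannot be told apart.

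Bfsp1 and Bfsp2 encode filensin and phakinin, the 2 subunits of the beaded filament. Bfsp1 (ENSMUSG00000027420, chr2:143668448-143705093) was at 42.0, 18.2 and 1.95 CPM in the dox-treated wildtype retinas and at 6.02, 3.79 and 4.29 CPM in untreated ones. Its PRDM13-OE retinas were at 1.33, 0.873 and 0.806 CPM with dox and 1.5, 0.603 and 2.02 CPM without. All wildtype retinas but 1 thus lay above every PRDM13-OE retina, and the exception, mouse 3 with dox, lay below the highest one. In eye cups Bfsp1 was at 27.3, 11.0 and 10.9 CPM in wildtype with dox, 35.3, 9.77 and 5.73 CPM in untreated wildtype, 4.45, 6.09 and 0.906 CPM in PRDM13-OE with dox, and 7.40, 2.02 and 2.18 CPM in untreated PRDM13-OE.

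Bfsp2 (ENSMUSG00000032556, chr9:103302123-103357619) followed its partner in the retinas and had a narrower range in the eye cups. In wildtype retinas it was at 33.8, 18.9 and 1.84 CPM with dox and at 4.70, 1.43 and 2.10 CPM without. In PRDM13-OE retinas it was at 0.276, 0.411 and 0.252 CPM with dox and at 1.79, 0.383 and 1.73 CPM without. In the 12 eye cups it lay between 7.34 and 31.1 CPM (median 22), a range of 4.23 times against 39.0 times for Bfsp1. The lncRNA 5830418P13Rik lies on the opposite strand and shares 12.9% of the Bfsp2 exon bases, and whether the counting used strand is not given in the sources used here.

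Grifin is a galectin-related protein found between lens fibers, and Lgsn encodes lengsin, a lens protein related to glutamine synthetase. Grifin (ENSMUSG00000036586, chr5:140548874-140550826) was at 25.6, 10.1 and 0.223 CPM in wildtype retinas with dox, and its other 9 retinas were at 0.0548 to 1.46 CPM. Lgsn (ENSMUSG00000050217, chr1:31215482-31243806) was at 4.05, 9.41 and 0.891 CPM in wildtype retinas with dox, with mouse 2 above mouse 1, whereas mouse 1 was above mouse 2 for Mip, Gja3, Bfsp1, Bfsp2 and Grifin. Its untreated wildtype retinas were at 4.24, 3.02 and 1.65 CPM, and its PRDM13-OE retinas were at 0.829, 0.873 and 0.353 CPM with dox and at 1.5, 0.767 and 2.31 CPM without. In eye cups Lgsn reached 8.76 and 7.88 CPM in the wildtype mice 1 with and without dox, while the 6 PRDM13-OE eye cups were at 0.362 to 2.29 CPM.

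Birc7 encodes livin, an inhibitor of apoptosis, and Hsf4 encodes the heat shock transcription factor of the lens. Birc7 (ENSMUSG00000038840, chr2:180570816-180575803) was near the limit of detection, with 0 to 11 counts in retinas, 9 of them at 3 counts or fewer, and 0 to 20 counts in eye cups. Its 2 highest eye cups were wildtype with dox, at 20 and 15 counts, and the third of that group, at 13 counts, lay below an untreated wildtype one at 14. Hsf4 (ENSMUSG00000033249, chr8:105996433-106002477) was the steadiest member, between 6.65 and 9.23 CPM in retinas and between 7.34 and 22.5 CPM in eye cups. Its retinal level in the 2 libraries with the most crystallin, 9.23 and 7.55 CPM, was within 1.39 times of the lowest retina. Tradd, a gene on the opposite strand with 4504 counts over the 24 libraries, shares 2.4% of the Hsf4 exon bases.

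**Figure D1:**
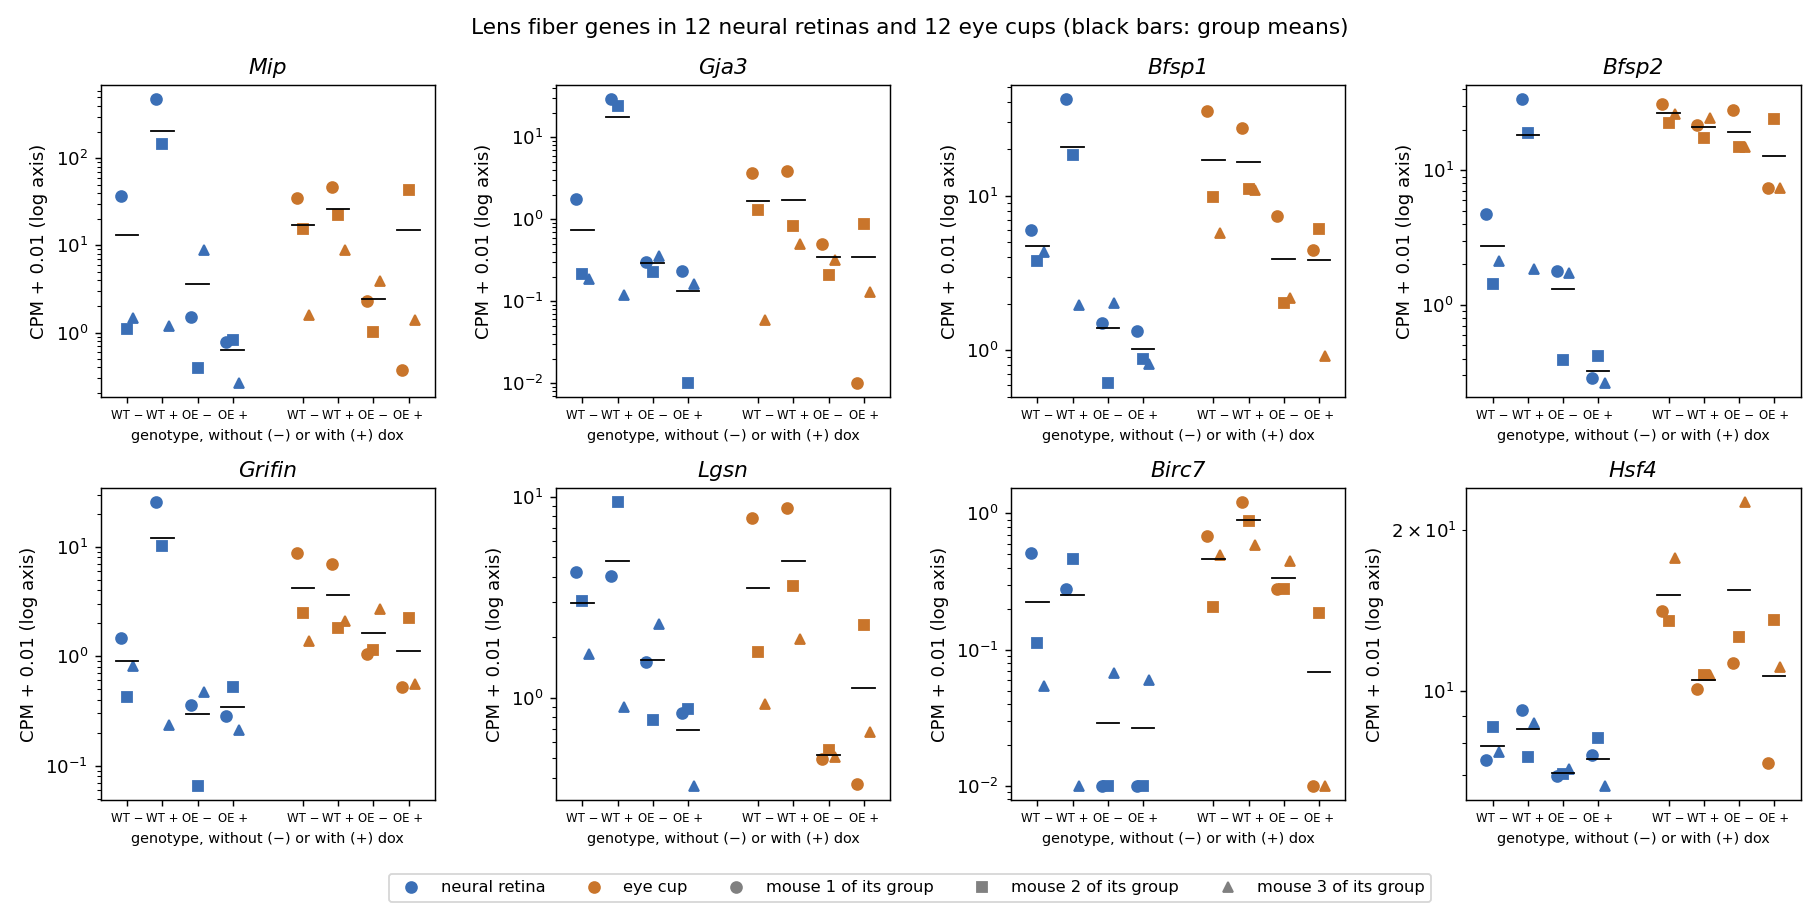
CPM of 8 members on a log axis (0.01 added), 1 point per library, in 12 retinas (blue) and 12 eye cups (orange) of wildtype (WT) and PRDM13-OE (OE) mice without and with dox. The black bars are group means, and the symbol gives the mouse of its group. Mip, Gja3 and Grifin in wildtype retinas with dox split into 2 high mice and 1 low mouse, while Hsf4 stays within 6.65 to 9.23 CPM in the retinas.

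Levels of different genes were compared only per length, as the deposited FPKM. In the median retina Hsf4 was the highest member at 4.23 FPKM, followed by Bfsp2 (1.02 FPKM), Bfsp1 (0.816 FPKM), Lgsn (0.804 FPKM), Grifin (0.686 FPKM) and Mip (0.61 FPKM), and these 5 overlapped in their ranges over libraries. Gja3 (0.0722 FPKM) and Birc7 (0.0302 FPKM) were lowest. In the wildtype retina with dox of mouse 1 the order was Mip (219 FPKM), Grifin (41.1 FPKM), Bfsp2 (19.6 FPKM), Bfsp1 (17.3 FPKM), Gja3 (9.73 FPKM) and Hsf4 (5.19 FPKM). In the median eye cup Bfsp2 led with 12.8 FPKM, ahead of Hsf4 at 6.77 FPKM, and their ranges over libraries overlapped.

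With dox, 6 of the 8 members tested were called lower in PRDM13-OE retinas compared with wildtype ones, where 1.5% of the 20560 genes tested were called lower. These were the channel and junction genes Mip and Gja3, both filament genes, Grifin and Lgsn. The call needed an adjusted p under 0.05 together with a change of more than 1 on the log2 scale, in edgeR's quasi-likelihood test with Benjamini-Hochberg adjustment over all genes tested. The Mip log2 fold change was -8.40 (SE 1.59, adjusted p = 0.00483), from group means of 208 ± 244 CPM in wildtype and 0.616 ± 0.316 CPM in PRDM13-OE (SD, n = 3 each). That of Gja3 was -7.12 (SE 1.41, adjusted p = 0.00632), where PRDM13-OE had at most 4 counts, so that its size depends on how low counts are fitted. Of the filament genes, Bfsp2 fell by 5.83 on the log2 scale (SE 0.96, adjusted p = 0.00201), and Bfsp1 had a log2 fold change of -4.37 (SE 0.85, adjusted p = 0.0056). For Grifin the log2 fold change was -5.15 (SE 1.13, adjusted p = 0.0116), and for Lgsn it was -2.81 (SE 0.67, adjusted p = 0.0178). Birc7, with 5, 9 and 0 counts in wildtype and 0, 0 and 1 in PRDM13-OE, was not called (adjusted p = 0.127). Hsf4 had a log2 fold change of -0.19 (SE 0.14, adjusted p = 0.431).

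Every PRDM13-OE library lay below every wildtype library for 4 of the 8 members, Mip, Bfsp1, Bfsp2 and Lgsn, and the same held for 16.1% of the genes tested. For Lgsn the gap was between 0.873 and 0.891 CPM, and Gja3 and Grifin overlapped because wildtype mouse 3 lay within the PRDM13-OE range. Wildtype mice 1 and 2 carried the size of the change. Gja3 and Birc7 had too few counts to be tested without their retinas, so the Gja3 call rests on these mice. Without these 2 retinas, a fit chosen after the values were seen, the remaining wildtype retina was assumed to vary like the 3 PRDM13-OE retinas, and 1 of the 6 members tested was called, where 0.955% of all genes were called lower. That member was Bfsp2, with a log2 fold change of -2.53 (SE 0.53, adjusted p = 0.00441), while Mip was at -0.93 (SE 0.59, adjusted p = 0.374) and Bfsp1 at -0.97 (SE 0.43, adjusted p = 0.186). Grifin turned to 0.55 (SE 0.93, adjusted p = 0.779). With the crystallin level as a covariate over the 12 retinas, 0 of the 8 were called by edgeR, where 0.479% of all genes were called lower, with 2 members at an unadjusted p under 0.05, and the Mip log2 fold change was 4.58 (SE 1.51, adjusted p = 0.138). In the retinas with dox the crystallin sum did not overlap, at 3.33 to 27.0 CPM in PRDM13-OE and 111 to 10614 CPM in wildtype. The covariate fit thus compared the genotypes at crystallin levels that they did not share. With robust fitting edgeR called 0 of the 8 as well, where it called 1.09% of all genes lower, with 6 at an unadjusted p under 0.05. The median log2 fold change of the 8 was -4.76 in the first fit and with robust fitting, and 0.71 with the covariate. Adjusted p with robust fitting ran from 0.0886 for Birc7 to 0.183 for Grifin among these 6, and Lgsn was at an unadjusted p of 0.0553 (adjusted p = 0.198). Grifin (adjusted p = 0.0537 to 0.0649) and Lgsn (0.0563 to 0.0865) also lost their calls without any 1 of the 3 PRDM13-OE retinas, at log2 fold changes of -5.62 to -4.89 and -3.04 to -2.49, Lgsn without wildtype mouse 2 (-1.85, adjusted p = 0.0634), and Birc7 gained a call without wildtype mouse 3 (0.0333). The crystallin level thus moved with the members, and its part in the result was not tested beyond these fits. Whether lens tissue was carried into the 2 wildtype retinas with 10614 and 4428 CPM of crystallin was not tested, so that carried-over lens RNA and expression in the retina cannot be told apart. Other marker lists moved with the same contrast and did not overlap: summed blood genes were at 0.663 to 1.11 CPM in PRDM13-OE and 29.3 to 73.0 CPM in wildtype retinas with dox, and ciliary body genes at 80.4 CPM or less and at 130 to 141 CPM. Cone genes were at 443 to 484 CPM in PRDM13-OE and 1024 to 1046 CPM in wildtype, rod genes at 42548 to 48360 and 58176 to 60324 CPM, and RPE genes at 485 to 530 and 667 to 726 CPM. The third wildtype retina with dox, at 111 CPM of crystallin, had 34.4 CPM of blood and 130 CPM of ciliary body genes. The part of these 5 lists in the result was not tested. The lists for pigment cells, Muller glia, surface epithelium and skeletal muscle overlapped between the groups. Rlbp1 stands in both the RPE and the Muller glia list. In bulk tissue, fewer cells with these transcripts and less RNA per cell cannot be told apart. Whether any of these were lens fiber cells was not tested.

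**Figure D2:**
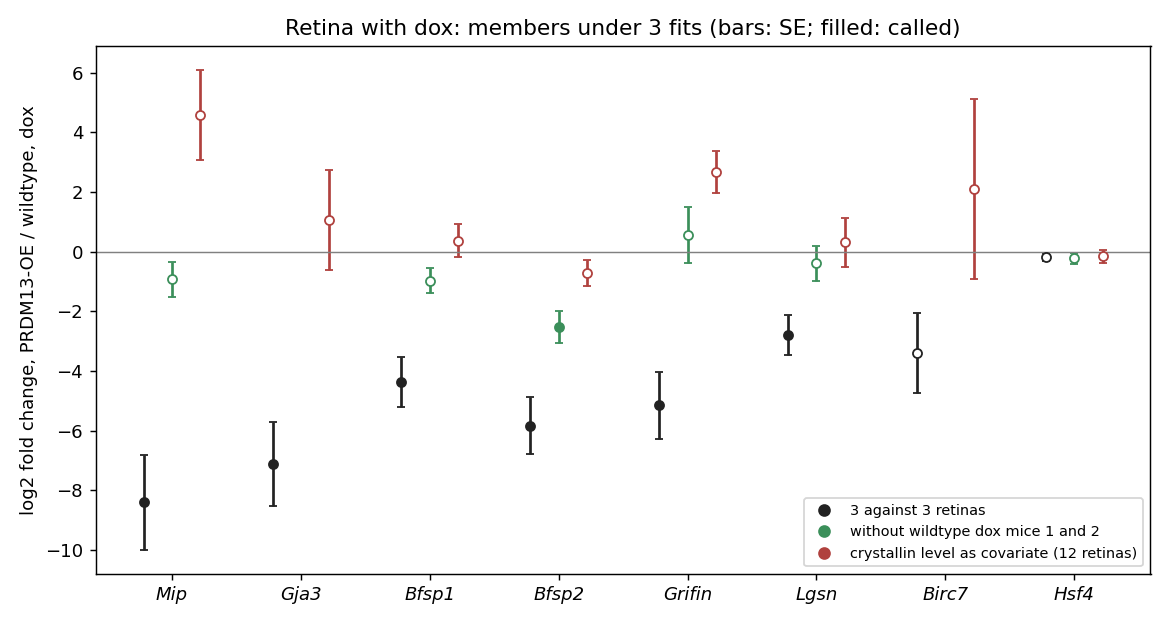
Log2 fold changes (PRDM13-OE over wildtype, retinas with dox) of 8 members with their SE as bars, from edgeR fits of 3 against 3 retinas (black), without the wildtype mice 1 and 2 (green, 6 members tested) and with the summed crystallin level as covariate over 12 retinas (red). Filled points were called. In the black fit Mip is at -8.40, without the 2 mice it is at -0.93, and with the covariate it is at 4.58.

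The other comparisons of the retina called no member with edgeR. Wildtype retinas with dox had higher fitted values than untreated ones for all 8 members, yet 0 of the 8 were called, against 0.00485% of all genes, with 5 at an unadjusted p under 0.05 and 0 called by DESeq2, which called 0.126% of all genes. The Gja3 log2 fold change was 4.60 (SE 1.13, adjusted p = 0.257) and that of Grifin was 3.72 (SE 0.98, adjusted p = 0.274). In this contrast ciliary body genes were at 130 to 141 CPM with dox and 54.3 to 104 CPM without, RPE genes at 667 to 726 and 607 to 650 CPM, and cone genes at 1024 to 1046 and 1120 to 1199 CPM, with no overlap, and their part was not tested. Without wildtype mouse 3 with dox, 4 members were called, in a fit that called 122 genes higher and 4 lower in place of 1 in all. Without mice 1 and 2 the fitted values of 7 of the 8 lay below the untreated ones. Untreated PRDM13-OE retinas had lower fitted values than untreated wildtype ones for all 8 members, and 0 of the 8 were called against 0.0% of all genes, with 4 at an unadjusted p under 0.05. DESeq2 called 1 member and 0.00968% of all genes, and the member was Bfsp1, whose groups did not overlap: 0.603 to 2.02 CPM in PRDM13-OE against 3.79 to 6.02 CPM in wildtype, which edgeR fitted as a log2 fold change of -1.77 (SE 0.34, adjusted p = 0.995). The crystallin sum did not overlap between these groups either, at 5.53 to 118 CPM in PRDM13-OE and 182 to 837 CPM in wildtype, and its part was not tested. No fit of that pair included a library given dox.

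Within PRDM13-OE, dox against no dox called 0 of the 7 members tested in edgeR, against 1.04% of all genes, with 3 at an unadjusted p under 0.05. Bfsp2 had a log2 fold change of -2.02 (SE 0.56, adjusted p = 0.0624), from 1.30 ± 0.796 CPM untreated to 0.313 ± 0.0857 CPM with dox (SD, n = 3 each), and it was the 1 member that DESeq2 called, beside 0.927% of all genes. Mip was at -2.54 (SE 0.85, adjusted p = 0.136) and Lgsn at -1.15 (SE 0.45, adjusted p = 0.225). In the same contrast blood genes were at 26.6 to 60.8 CPM untreated and 0.663 to 1.11 CPM with dox, cone genes at 1090 to 1125 and 443 to 484 CPM, rod genes at 57722 to 63869 and 42548 to 48360 CPM, and RPE genes at 575 to 804 and 485 to 530 CPM, with no overlap. Skeletal muscle genes, at 4.55 to 36.5 and 4.2 to 4.42 CPM, did not overlap either. Muller glia genes went the other way, at 3920 to 4630 CPM untreated and 4636 to 4926 CPM with dox. The part of these lists was not tested. The interaction of genotype and dox over the 12 retinas called 0 of the 8, against 0.87% of all genes, with 4 at an unadjusted p under 0.05, and DESeq2 called 1, beside 0.976% of all genes. The 1 was again Bfsp2, whose interaction term in edgeR was -4.73 on the log2 scale (SE 1.28, adjusted p = 0.0582). Without wildtype retinas 1 and 2 with dox, which left 1 retina in that group, it was -1.44 (SE 0.89). The median over the 8 members then turned from -3.04 to 0.88, with 6 above 0. These comparisons share groups with the one of the genotypes under dox, so their values are not separate evidence.

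In the eye cups no member was called in any of the 5 comparisons. PRDM13-OE with dox against wildtype with dox called 0 of the 8 members with edgeR and 0 with DESeq2, where edgeR called 0.0184% and DESeq2 0.556% of all genes, with 3 and 4 members at an unadjusted p under 0.05. The 3 were Birc7 (log2 fold change -3.70, SE 1.07, adjusted p = 0.597), Bfsp1 (-2.01, SE 0.68, adjusted p = 0.597) and Lgsn (-2.02, SE 0.81, adjusted p = 0.597). The crystallin sum was at 5.62 to 371 CPM in PRDM13-OE and 733 to 3436 CPM in wildtype eye cups with dox, and blood genes were at 12.9 to 15.9 and 254 to 631 CPM, with no overlap. With the crystallin covariate the median over the 8 members turned from -1.81 to 0.23 on the log2 scale, with 6 above 0 and 0 called or at an unadjusted p under 0.05, and the part of the crystallins and of blood in the result was not tested further. Birc7 had 0, 3 and 0 counts in PRDM13-OE with dox, so its fitted change is uncertain in size. Mip, at -0.72 (SE 1.41, adjusted p = 0.624), had 1 PRDM13-OE eye cup, from mouse 2, at 42.9 CPM, close to the highest wildtype one at 47.2 CPM. Leaving out 1 library moved the Mip change over -4.86 to 0.03. Without that PRDM13-OE eye cup the median over the members was -2.92, with 7 of the 8 at an unadjusted p under 0.05 and 0 called, beside 0.0% of all genes. Without the one of PRDM13-OE mouse 3, 0 of the 8 were called beside 8.32% of all genes. Untreated PRDM13-OE against untreated wildtype called 0 of the 8 with both tools, where edgeR called 0.0% and DESeq2 0.0139% of all genes, with 3 members at an unadjusted p under 0.05 in each, and Lgsn was lowest in p with a log2 fold change of -2.78 (SE 0.86, adjusted p = 1.00). Dox against no dox in wildtype called 0 of the 8 with both tools, with 1 at an unadjusted p under 0.05 in each. Over all genes that comparison called 0.0% with edgeR, but DESeq2 called 1371 genes higher and 597 lower, 9.03% of the 21799 tested. In PRDM13-OE dox against no dox called 0 of the 8 with both tools, with 0 at an unadjusted p under 0.05, where edgeR called 0.0139% and DESeq2 0.273% of all genes. The interaction called 0 of the 8 with both tools, where edgeR called 0.0% and DESeq2 0.109% of all genes, with 1 member at an unadjusted p under 0.05 in each. The eye cups differed widely in makeup within groups, with surface epithelium genes at 6781 to 38802 CPM and rod genes at 4772 to 33437 CPM among the 3 of PRDM13-OE with dox, and the part of these differences in the members' levels was not tested.

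Whether the genotype difference under dox was larger in the retina than in the eye cup was tested directly over the 12 libraries with dox. Of the 8 members 0 were called by edgeR, against 0.0% of all genes, with 2 at an unadjusted p under 0.05, Mip and Bfsp2. The Bfsp2 difference between the tissues was -5.24 on the log2 scale (SE 1.23, adjusted p = 0.685), and it was the 1 member that DESeq2 called, beside 0.148% of all genes. The Mip difference was -7.71 (SE 2.58, adjusted p = 0.685). In that fit the retina and eye cup of a mouse entered as separate samples. With the animal as a block edgeR called 0 of the 8, beside 0.0% of all genes, with 1 at an unadjusted p under 0.05. The median over the members was then -2.16 on the log2 scale in place of -2.97. Without wildtype retinas 1 and 2 with dox the median over the 8 members turned from -2.97 to 1.32 on the log2 scale, with 5 above 0. Mip was then at -0.24 (SE 2.52). Without the eye cup of PRDM13-OE mouse 3 with dox, edgeR called these 2, Mip with an adjusted p of 0.0453 and Bfsp2 with one of 0.0154, but that fit called 1674 genes higher and 463 lower, 9.13% of the 23401 tested, in place of 0.

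Between the tissues, Bfsp2 was higher in the eye cup. Over the 8 groups, 3 of the 8 members were called higher there and 0 lower, not far from the 24.2% of all genes called higher. Bfsp2 had a log2 fold change of 3.18 (SE 0.38, adjusted p = 2.79e-07) and was higher in the eye cup of 10 of the 12 mice. The other 2 mice were the wildtype mice with dox whose retinas stood apart, mouse 1 with 33.8 CPM in the retina and 21.7 CPM in the eye cup and mouse 2 with 18.9 and 17.3 CPM. Birc7 (1.99, SE 0.65, adjusted p = 0.0102) and Bfsp1 (1.24, SE 0.43, adjusted p = 0.015) were also called. Without the eye cup of PRDM13-OE mouse 2 with dox the Birc7 call was lost (adjusted p = 1.00), since the other 2 eye cups of its group had 0 counts, and without that of untreated wildtype mouse 1 the Bfsp1 change was 0.95. Hsf4 was higher in the eye cup of 11 of the 12 mice by a log2 fold change of 0.72 (SE 0.12, adjusted p = 1.25e-05), which was under the fold limit. Mip (0.35, SE 0.83, adjusted p = 0.758), Gja3 (-0.14, SE 0.87, adjusted p = 0.95) and Lgsn (-0.17, SE 0.42, adjusted p = 0.779) were not called. Leaving out 1 library gave -0.67 to 1.25 for Mip, -0.74 to 0.37 for Gja3 and -0.52 to 0.11 for Lgsn, with 0 calls. Without the 2 wildtype retinas that stood apart, all 8 members had higher fitted values in the eye cup, with a median log2 fold change of 2.19 in place of 0.94. Mip was then at 2.27 (SE 0.98, adjusted p = 0.0518), Gja3 at 1.70 (SE 0.81, adjusted p = 0.0765) and Lgsn at 0.47 (SE 0.45, adjusted p = 0.389), and 4 members were called higher, where 24.3% of all genes were. With the animal as a block 4 members were called higher, where 23.4% of all genes were, the 3 and Grifin, whose log2 fold change there was 1.33 (SE 0.54, adjusted p = 0.042).

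The retina and the eye cup of a mouse were separate libraries, so a member's level in one could be set against the other over 12 mice. The highest value was that of Bfsp1, with Pearson's r = 0.72 (permutation p = 0.00803, adjusted p = 0.0354 over 8 members) and Spearman's rho = 0.78 (permutation p = 0.00397, adjusted p = 0.0318) on log2(CPM + 1). Without the 2 mice farthest from the retinal median, wildtype mice 1 and 2 with dox, r was 0.74. Mip had r = 0.64 (permutation p = 0.0221, adjusted p = 0.0354) and rho = 0.66 (permutation p = 0.0239, adjusted p = 0.0746), and r was 0.46 without the same 2 mice. Lgsn had r = 0.66 (permutation p = 0.019, adjusted p = 0.0354) and rho = 0.61 (permutation p = 0.0412, adjusted p = 0.0824), and r was 0.57 without 2 mice. For Bfsp2 r was 0.37 (permutation p = 0.228, adjusted p = 0.26) and rho 0.56 (permutation p = 0.0621, adjusted p = 0.0827), and r rose to 0.74 without the 2 mice, whose retinas were high while their eye cups were ordinary. Birc7 had r = 0.68 (permutation p = 0.015, adjusted p = 0.0354) and rho = 0.57 (permutation p = 0.0593, adjusted p = 0.0827) at very low counts. Grifin had r = 0.55 (permutation p = 0.0455, adjusted p = 0.0607) and rho = 0.64 (permutation p = 0.028, adjusted p = 0.0746). Gja3 fell into separate clusters in the retina, so no value is given. Hsf4 showed r = -0.19 (permutation p = 0.567, adjusted p = 0.567) and rho = -0.20 (permutation p = 0.529, adjusted p = 0.529). The 12 mice belong to 4 groups that differ in level, and within a group 3 mice are too few for a correlation. The permutations moved mice across the groups, so their p-values do not set group differences aside. A correlation of each member's deviations from its group means was not run. With 0.1 in place of 1 added to CPM, no Pearson value passed 0.05 after adjustment, and the Bfsp1 rho was the same.

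**Figure D3:**
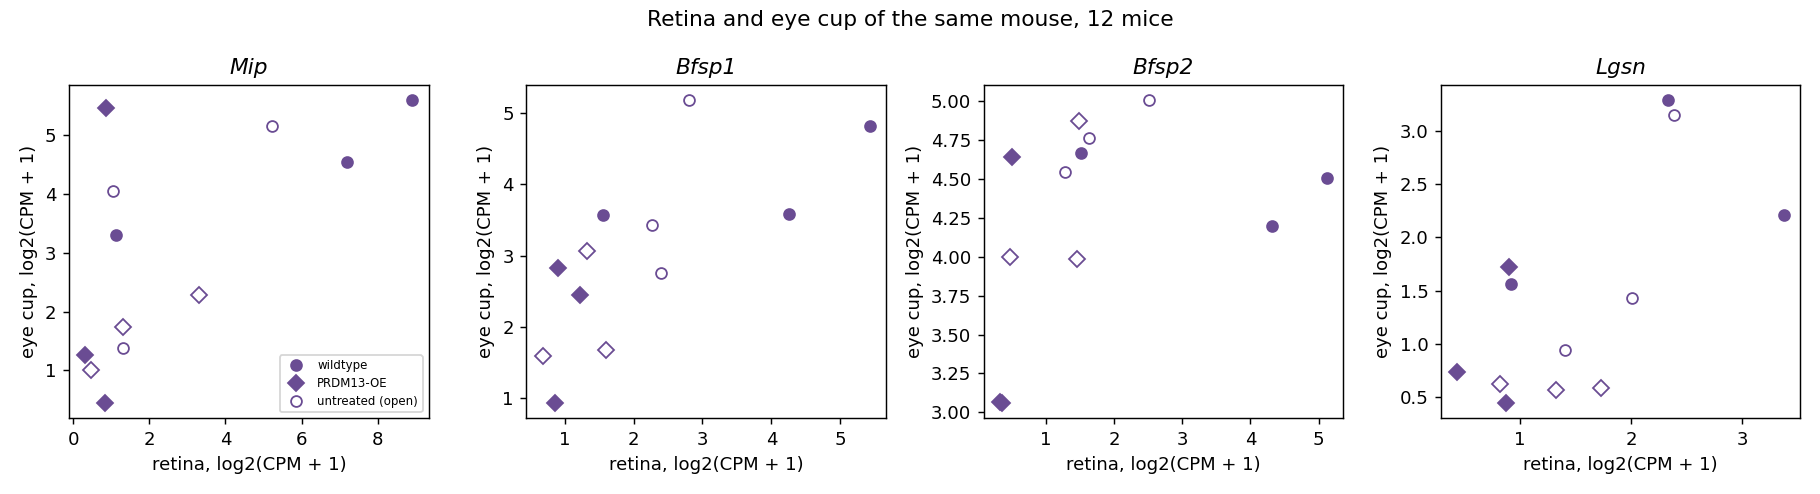
Level in the retina (x axis) and in the eye cup (y axis) of the same mouse, as log2(CPM + 1), for Mip, Bfsp1, Bfsp2 and Lgsn in 12 mice, with circles for wildtype, diamonds for PRDM13-OE and open symbols for untreated mice. Bfsp1 rises in both tissues together (r = 0.72), and in the Bfsp2 panel 2 wildtype mice with dox lie far to the right at ordinary eye cup levels.

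The members were also set against the crystallins of the same library. Over the 12 retinas, log2 levels of Bfsp1 and Bfsp2 had r = 0.95 with the crystallin sum, Mip 0.90, Lgsn 0.89, Grifin 0.86, Gja3 0.83, Birc7 0.76 and Hsf4 0.54. These are descriptions over libraries that share depth and groups, and 2 libraries hold most of the signal. Over the 12 eye cups Bfsp1 had r = 0.94, Bfsp2 0.77 and Hsf4 0.07. The proportions were not fixed, with each gene set only against itself in another library. Per 1000 crystallin counts, Mip had 45.0 and 32.8 counts in the 2 wildtype retinas that stood apart and 10.5 in the third one with dox. Bfsp1 had 3.96 and 4.11 counts in the 2 and 17.5 in the third, and Bfsp2 had 3.18 and 4.26 in the 2 and 16.5 in the third.

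**Figure D4:**
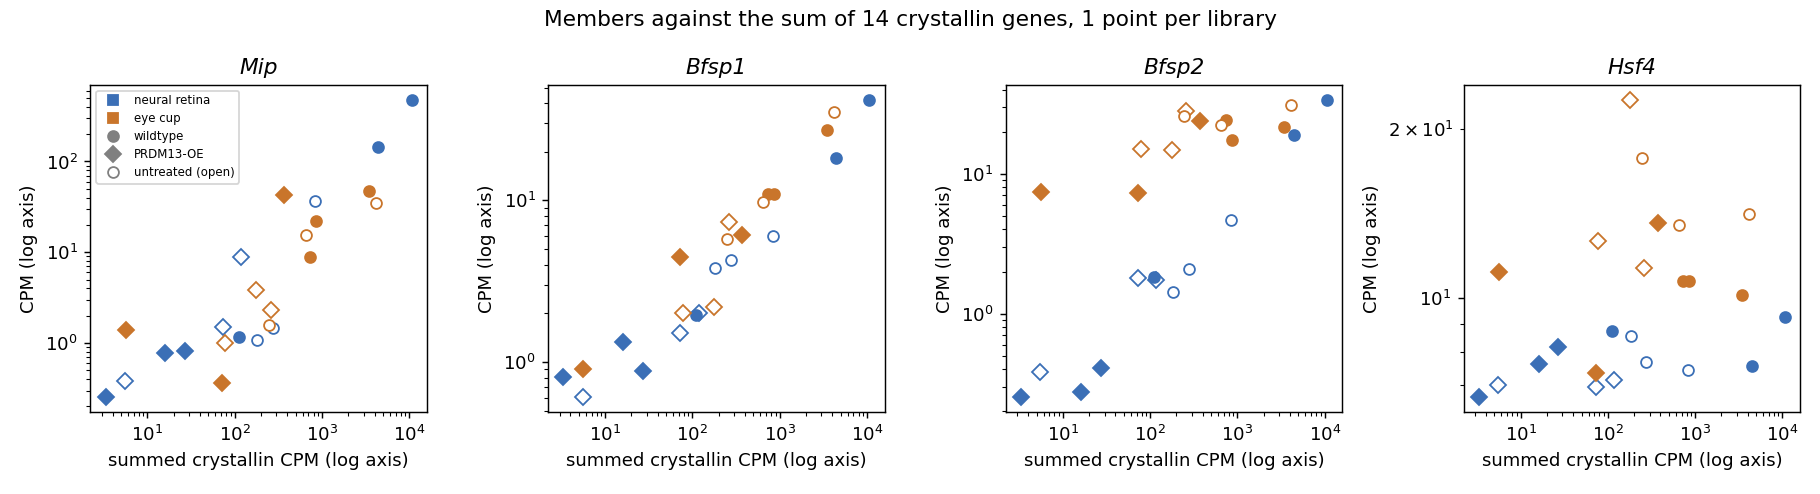
CPM of Mip, Bfsp1, Bfsp2 and Hsf4 (y axis, log) against the summed CPM of 14 crystallin genes (x axis, log) in 12 retinas (blue) and 12 eye cups (orange), with circles for wildtype, diamonds for PRDM13-OE and open symbols for untreated mice. Bfsp1 of both tissues lies near 1 line, eye cup Bfsp2 stays at 7.34 CPM or more where crystallin is low, and retinal Hsf4 is flat.

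Other genes of lens development and fiber differentiation were counted over a list of 19. With dox, 6 of the 18 tested were called lower in PRDM13-OE retinas and 0 higher, with a median log2 fold change of -0.43 beside 0.006 over all genes tested, and DESeq2 called 2 lower. Over all genes tested edgeR called 1.5% lower and DESeq2 1.26%. With robust fitting 1 was called lower, Aqp5, beside 1.09% of all genes. With the crystallin covariate edgeR called 0 of the 19, with 6 at an unadjusted p under 0.05, beside 0.479% of all genes lower. The 6 called in the first fit were the gap junction gene Gja1 (connexin 43), the water channel Aqp5, the fatty acid binding protein Fabp5, and the lens transcription factors Foxe3, Pitx3 and Sox1. Aqp5, with a log2 fold change of -2.50 (SE 0.38, adjusted p = 0.00128), lay between 1.95 and 5.45 CPM in wildtype and between 0.617 and 0.907 CPM in PRDM13-OE, and its groups did not overlap. DESeq2 called Aqp5 and Gja1, and its adjusted p was 0.128 for Fabp5, 0.0529 for Foxe3, 0.122 for Pitx3 and 0.0689 for Sox1. Foxe3, a factor of the lens epithelium, ranged from 0.0 to 27.6 CPM in wildtype with dox and from 0.0 to 0.103 CPM in PRDM13-OE with dox. Pitx3 ranged from 0.0 to 7.3 CPM and Sox1 from 0.0 to 3.97 CPM in wildtype retinas with dox. In PRDM13-OE retinas with dox they reached at most 0.11 and 0.0552 CPM. Foxe3, Pitx3 and Sox1 had too few counts to be tested without the 2 wildtype retinas that stood apart. Their calls thus rest on those 2 retinas. Without the 2 wildtype retinas that stood apart, 1 of the 15 tested was called lower, Gja1 with a log2 fold change of -1.43 (SE 0.34, adjusted p = 0.0113), and 1 higher, Epha2 with 1.05 (SE 0.28, adjusted p = 0.0221), a gene named after its values were seen, beside 0.955% of all genes lower and 0.863% higher. In the eye cups 0 of the 19 were called by edgeR and 0 by DESeq2 for PRDM13-OE with dox against wildtype with dox, with 1 and 2 at an unadjusted p under 0.05, where edgeR called 0.0184% and DESeq2 0.556% of all genes. Across tissues, 9 of the 19 were called higher and 3 lower in the eye cup, where 24.2% and 18.4% of all genes were.

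The genes whose pattern was most like the mean of the members were mostly crystallins: the 5 highest of each tissue were 8 different genes, and 6 of these were crystallins. Over the 12 retinas the 5 highest of 14720 genes by Pearson's r on log2(CPM + 1) were Cryab (0.986), Cryba2 (0.979), Crybb1 (0.976), Lctl (0.974) and Wnt7b (0.971). Over the 12 eye cups, of 15814 genes, they were Cryba2 (0.971), Crygb (0.966), Crybb1 (0.966), Crygs (0.964) and Crygc (0.961). Among the members, each was also compared with the mean of the others over the retinas, where Bfsp2 had r = 0.98, Mip 0.97 and Hsf4 0.41.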

How the data were processed

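RNA from neural retinas and eye cups was sequenced by Novogene for the authors, and the submitters' processing notes name CASAVA and HISAT2 and the build GRCm39. The counting tool and the annotation release are not given in the sources used here. The authors deposited raw read counts per gene, which all tests started from. The authors also deposited FPKM values, normalized for gene length and depth, which were used only to compare levels between genes. Deposited columns of the authors' own comparisons (group means, log2 fold changes, p-values) were not used.

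The 9 members and all gene lists were chosen with earlier results of these data known, so no list is independent evidence. Members were found by gene symbol, and every member was named, with those of the other lens genes called in retinas with dox. The list of other lens genes holds 19, and 1 further gene was left out and is not reported here. Samples were grouped by their labels. The test was the quasi-likelihood one of edgeR 4.0.16 (R 4.3.3), with TMM factors and without robust fitting, on those genes whose counts summed to 10 or more in the fitted libraries, and it was tried on simulated data. Alternatives were DESeq2 1.42.0, library size scaling, no filter, robust fitting, no fold limit, a replicate block, filterByExpr, all 12 libraries in one fit, a crystallin covariate, and leaving out each library. Leaving out wildtype mice 1 and 2 with dox was added after seeing the data. Retina and eye cup pair by animal, as the labels state: their deviations from the group means had r from 0 to 0.19. The labels name the mice as biological replicates. Within each group no libraries were copies of each other, and libraries of different groups were not compared for this. Correlations used permutation tests with 100000 resamples in scipy 1.17.1, two-sided. Promoters came from RefSeq. Levels of GENCODE vM39 neighbors were taken from the same table.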

Additional observations from a re-analysis of the deposited data

How the results depend on the processing

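For the 3 results with any member called, the number was unchanged or within 1.5 times in 44 of 48 other fits. The other 10 comparisons called 0 members, and a count that stays at 0 says nothing about stability; 17 of their 144 other fits called any. For PRDM13-OE against wildtype retinas with dox (6 called), robust fitting and the crystallin covariate each called 0, beside 1.09% and 0.479% of all genes called lower. Without wildtype mice 1 and 2 the median log2 fold change was -0.66 over the 6 members tested, in place of -4.76 over 8. Leaving out 1 library gave 4 to 7, beside 1.04% to 1.72% of all genes called lower. The covariate reversed Mip (4.58), Gja3 (1.06), Bfsp1 (0.36), Grifin (2.66), Lgsn (0.31) and Birc7 (2.10), and leaving out the 2 mice reversed Grifin (0.55), all on the log2 scale. Of the comparisons with 0 called, wildtype with dox against untreated retinas had 5 with no filter (0.655% of all genes), 1 with the replicate block (0.102%) and 0 to 4 leaving out 1 library (0.622% of all genes where 4). Untreated PRDM13-OE against wildtype retinas had 1 with DESeq2 (0.00968% of all genes) and 2 with no filter (0.165%). PRDM13-OE retinas with against without dox had 1 with DESeq2 (0.927% of all genes), 3 with no filter (1.15%), 1 with robust fitting (1.12%) and 0 to 2 leaving out 1 library (2 without untreated mouse 2, beside 1.16%). The retinal interaction had 1 with DESeq2 (0.976% of all genes), 6 with no filter (1.5%), 1 with the replicate block (0.799%) and 0 to 5 leaving out 1 library. It had 5 without wildtype mouse 3 with dox (1.14%), 1 without untreated PRDM13-OE mouse 2 (1.04%) and 1 without untreated wildtype mouse 1 (0.822%). The difference between tissues under dox had 1 with DESeq2 (0.148% of all genes) and 0 to 2 leaving out 1 library (9.13% where 2). With 0.1 in place of 1 added to CPM, 0 in place of 5 correlations passed, where the 5 were those of Bfsp1, Mip, Lgsn and Birc7 and a Gja3 value not given above. With no filter the SE of Mip in wildtype retinas with against without dox was 0.08 in place of 1.41, and the cause was not tested. Mouse numbers within a tissue did not pair the samples (mean r 0.01 in retinas and -0.01 in eye cups). The replicate block called 6 members in the first comparison as before, beside 1.53% of all genes called lower. Counts of 3 or fewer limit Birc7 in 9 retinas and Gja3 in 3.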
